A study of Mus musculus with 7 samples.

Results

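The 9 genes described here are members of bone morphogenetic protein (BMP) signalling: the ligands Bmp2, Bmp4, Bmp7 and Bmp10, the intracellular inhibitor Smad6, and the target genes Id1, Id2, Id3 and Id4. They were chosen by symbol, and all 9 have a row among the 15967 rows of the gene table. RNA with poly-A tails was sequenced from the sinoatrial node (SAN, the pacemaker region of the right atrium) of Sv129 mice at postnatal 3 weeks. The comparison has 1 library of each genotype at day 6. The Cre library is from Baf250af/f;Hcn4CreERT2 mice, which carry floxed alleles of Baf250a (symbol Arid1a, a DNA-binding subunit of the BAF chromatin remodelling complex) and a tamoxifen-inducible Cre driven from Hcn4, a gene of pacemaker cells. The control library is from Baf250af/f mice, which carry the same floxed alleles and no Cre. The number and sex of the mice in a library, and whether the control mice received tamoxifen, are not given in the labels. The other 5 libraries, a time series, were not analysed here. Each genotype has a single library, so the differences below are descriptions without replicates or tests.

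BMPs are secreted dimers that bind pairs of type I and type II receptors. The receptors phosphorylate Smad1, Smad5 and Smad9, which join Smad4 and switch on target genes in the nucleus. Among the most direct targets are the Id genes, whose proteins have a helix-loop-helix domain without a DNA-binding basic region and hold E proteins and other bHLH factors away from DNA. Smad6 is itself a target and blocks the pathway from within the cell. In the heart, Bmp2 and Bmp4 are known for roles in the formation of the atrioventricular canal, valves and outflow tract, and Bmp10 is made by atrial muscle.

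Expression is given as FPKM (fragments per kilobase, scaled to the mapped fragments of the library), which is per length, so levels of different genes can be set side by side. The ratios are log2 of (Cre FPKM + 1) over (control FPKM + 1), a scale that understates differences of weak genes. Differences of at least 2-fold on that scale were counted as higher or lower. Of 13411 genes whose mean reached 1 FPKM, 815 (6.08%) were higher by this rule in the Cre library and 1397 (10.4%) were lower, and the median log2 ratio was -0.07. All 9 members passed the minimum of 1 FPKM. Among them 1 was higher, Id4, and 0 were lower, and their median log2 ratio was 0.13. In the authors' deposited table none of the 9 was called significant, with p-values from 0.180 for Id4 to 0.986 for Bmp2 and a q-value of 0.999 for each. That table compares 2 libraries, not the genotypes.

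The libraries also differed in markers of other tissues. The floxed gene Arid1a had 34.9 FPKM without Cre and 12.3 FPKM with Cre, a value that also covers exons outside the floxed part. The 10 pacemaker markers summed to 32.7 FPKM without Cre and 48.9 FPKM with Cre, with 7 of the 8 that reached a mean of 1 FPKM above 0 in log2 ratio (median 0.35) and 1, Cacna1g, at least 2-fold higher. Most of that sum was Smoc2 (17.3 and 25.8 FPKM), while Hcn4, Isl1 and Shox2 were weak, at 0.605, 1.69 and 1.20 FPKM without Cre and 0.719, 2.02 and 1.26 FPKM with Cre. Markers of T cells and thymocytes, 17 of 17 lower with Cre, summed to 3097 FPKM without Cre and 8.97 FPKM with Cre, and all 15 cell cycle genes were likewise lower in the Cre library (1023 and 111 FPKM in sum). Markers of lung and airway, 12 of 12 higher in the Cre library, summed to 4232 and 18859 FPKM. Xist had 0.379 and 93.2 FPKM and the Y-linked Eif2s3y 85.8 and 0.118 FPKM, so the libraries differed in sex by these genes. In bulk tissue, fewer cells of a type cannot be told apart from less RNA per cell. The part of these differences in the values of Arid1a and of the BMP and Id genes was not tested.

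**Figure D1:**
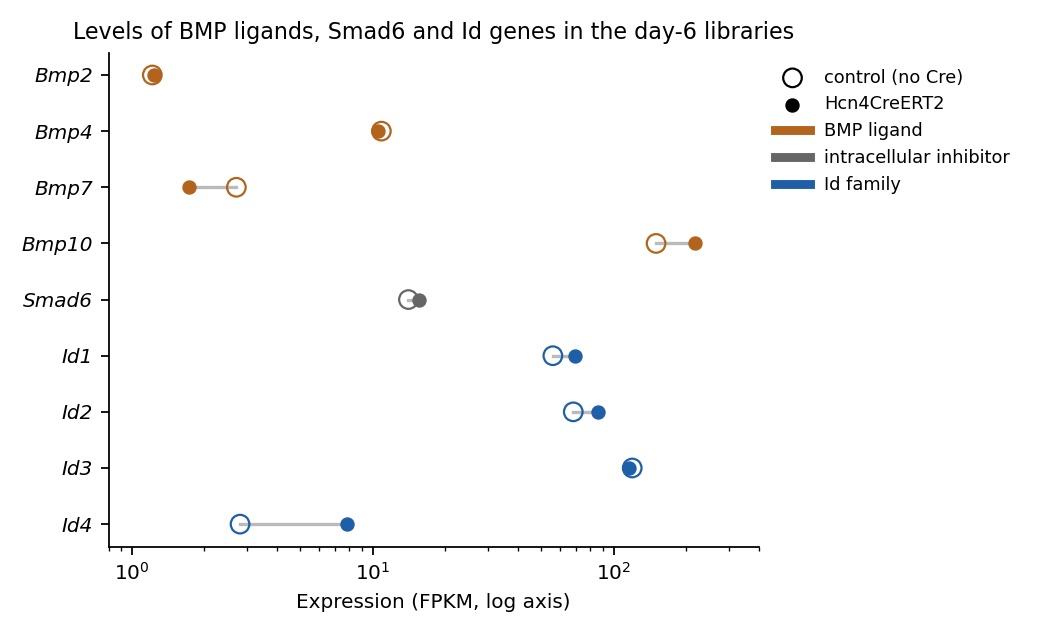
Expression of the 9 genes in FPKM on a log axis. Open circles are the control library and filled circles the Cre library, 1 library each, with a grey line joining the pair. Bmp10 and Id3 are at the top of their families in both libraries, and the widest gap is that of Id4.

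Bmp10 was the dominant ligand of the 4. It had 150.0 FPKM without Cre and 218 FPKM with Cre, above 96.2% and 97.3% of the 13411 genes. The log2 ratio was 0.54, 1.46-fold without a pseudocount and short of the 2-fold rule, and 81.7% of genes had a lower ratio. Bmp10 made up 91.0% of the summed FPKM of the 4 ligands in the control and 94.2% in the Cre library. It lies on mm9 chromosome 6 from 87378995 to 87384506 (NM_009756). Markers of atrial muscle cells had the same median log2 ratio of 0.54, with 6 of 7 measured markers above 0, and those of working cardiomyocytes had a median of 1.51, with 8 of 12 at least 2-fold higher. Myl7 and Myl4, atrial myosin light chains, had 5603 and 3310 FPKM without Cre and 6940 and 3838 FPKM with Cre. Sln was the only measured atrial marker below 0, at 2580 FPKM without Cre and 2240 FPKM with Cre, a log2 ratio of -0.20. Nppa was left out because its comparison was not completed. The 7 measured markers summed to 11581 FPKM without Cre and 13215 FPKM with Cre, 1.14 times as much. By its log2 ratio Bmp10 stood at the middle of the atrial list, and the part of muscle content in its ratio was not tested. When ratios were centred on the endothelium and fibroblast lists, the Bmp10 ratio was 0.02.

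Bmp4, a ligand made by mesenchyme in many organs, lung included, was the second ligand in level. It had 10.9 FPKM without Cre and 10.5 FPKM with Cre, a log2 ratio of -0.04. This put Bmp4 at nearly equal levels, and its sign turned with scaling (0.18 with upper quartiles made equal, -0.56 with the endothelium and fibroblast centring). Its locus (NM_007554, mm9 chromosome 14, 46999198 to 47010274) overlaps the row of Gm15217, which lies on the opposite strand and had 0.107 and 0.398 FPKM. Strand use in the counting is not given in the sources used here, so reads of such partners could not be separated.

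Bmp7 and Bmp2 were weak. Bmp7, an epithelial and mesenchymal ligand that pairs with Bmp2 or Bmp4, had 2.71 FPKM without Cre and 1.72 FPKM with Cre, a log2 ratio of -0.45 (NM_007557, mm9 chromosome 2, 172695188 to 172765794). It was the one member whose ratio was below 0 under all 9 settings of scale and pseudocount, between -0.97 and -0.20, and in none of them did it reach 2-fold. A pseudocount cannot change the sign of a ratio, so only the scalings could have turned it. Bmp2, close to Bmp4 in sequence and function, had 1.22 and 1.23 FPKM, a log2 ratio of 0.01 (NM_007553, mm9 chromosome 2, 133378934 to 133388621). The order of the ligands was therefore Bmp10, Bmp4, Bmp7 and Bmp2 in both libraries. Bmp10 stood 13.8 times above Bmp4 in the control and 20.7 times in the Cre library, whereas Bmp7 and Bmp2 lay within 2.23 and 1.40 times of each other, and without replicates no spread can be set beside these gaps.

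Smad6, the inhibitory Smad, had 14.1 FPKM without Cre and 15.5 FPKM with Cre, a log2 ratio of 0.13 (NM_008542, mm9 chromosome 9, 63800882 to 63869866). Its level was near the middle of expressed genes, above 57.0% of them in the control and 65.4% in the Cre library. A lower ratio than that of Smad6 was seen in 61.7% of genes. It turned to -0.38 with the endothelium and fibroblast centring.

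The Id family differed from gene to gene, with Id3 level, Id1 and Id2 slightly higher and Id4 more than 2-fold higher in the Cre library as scaled by the authors. The 4 genes together had 246 FPKM without Cre and 279 FPKM with Cre, 1.13 times as much. Id3 had 119 FPKM without Cre and 116 FPKM with Cre, the highest level of the family in both, with a log2 ratio of -0.05 (NM_008321, mm9 chromosome 4, 135699736 to 135701307). Id2, which holds back E proteins and is also needed for innate lymphoid cells and the conduction system, had 68.0 and 85.9 FPKM, a log2 ratio of 0.33 (NM_010496, mm9 chromosome 12, 25778663 to 25780957). Id1, a much used readout of BMP receptor activity, had 55.9 and 69.4 FPKM, a log2 ratio of 0.31 (NM_010495, mm9 chromosome 2, 152562009 to 152563146). Id1, Id2 and Id3 thus stayed in the same order and were each above 89.0% of genes in the control library. With the endothelium and fibroblast centring the ratios of Id1, Id2 and Id3 were -0.21, -0.18 and -0.56, so the sign of Id1 and Id2 turned there, and that of Id3 turned with the same upper quartile (0.19).

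Id4, the family member best known from brain, mammary gland and testis, was the weakest of the 4 and the one that passed the size rule. It had 2.81 FPKM without Cre and 7.80 FPKM with Cre, a log2 ratio of 1.21, or 2.77-fold without a pseudocount (NM_031166, mm9 chromosome 13, 48356795 to 48359405). Of all genes, 96.3% had a lower ratio. Among the 4848 genes within 2-fold of its mean of 5.30 FPKM, 366 (7.55%) were higher with Cre by 2-fold or more. Id4 passed the rule under 7 of 9 settings of scale and pseudocount. It did not with a pseudocount of 5 (0.71) or the endothelium and fibroblast centring (0.69). Its share of the family's FPKM was 1.14% in the control and 2.80% in the Cre library, and Id1 stood 19.9 times and 8.90 times above it. In GENCODE M21, on GRCm38, exons of A330033J07Rik and Gm49291 overlap Id4 on the opposite strand, so without knowledge of strand use the value may include their reads.

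The bases just before the annotated starts of Id2, Id3 and Id4 are shown because these 3 family members ran from level (Id3) to more than 2-fold apart (Id4), so that the promoters can be read side by side. They come from a set of RefSeq promoters on GRCm38.p6 that held 6 of the 9 genes and lacked Id1, Bmp2 and Bmp7. Each runs 5′ to 3′ over the 250 bases that end just before the start. Capitals mark GGCGCC, the GC-rich core of BMP response elements bound by Smad1 and Smad5, and CANNTG, the E-box that bHLH factors bind (both strands read the same for either motif, and no marked matches overlap). Id2 is on the minus strand of chromosome 12 (25096093 to 25096342), Id3 on the plus strand of chromosome 4 (136143572 to 136143821) and Id4 on the plus strand of chromosome 13 (48260866 to 48261115).
Id2: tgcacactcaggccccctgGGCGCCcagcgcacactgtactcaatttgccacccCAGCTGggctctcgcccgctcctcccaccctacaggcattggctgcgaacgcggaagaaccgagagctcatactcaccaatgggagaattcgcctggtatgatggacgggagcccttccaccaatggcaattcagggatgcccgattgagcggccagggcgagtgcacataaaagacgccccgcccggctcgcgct
Id3: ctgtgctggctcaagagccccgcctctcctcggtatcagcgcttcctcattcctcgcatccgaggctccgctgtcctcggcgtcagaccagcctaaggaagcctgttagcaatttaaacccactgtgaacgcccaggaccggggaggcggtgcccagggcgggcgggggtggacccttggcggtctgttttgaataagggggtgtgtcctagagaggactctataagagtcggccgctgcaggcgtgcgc
Id4: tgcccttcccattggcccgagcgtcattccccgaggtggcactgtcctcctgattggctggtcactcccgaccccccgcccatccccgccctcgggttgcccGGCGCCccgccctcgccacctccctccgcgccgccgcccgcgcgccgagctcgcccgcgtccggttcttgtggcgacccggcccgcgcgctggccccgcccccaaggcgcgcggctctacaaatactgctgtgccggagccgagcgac

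GGCGCC occurred once in the Id4 window, starting 148 bases before the start, and once in the Id2 window, 231 bases before it, and 9.59% of 32851 promoter windows of that length held it. It did not occur in the windows of Id3, Bmp4, Bmp10 or Smad6. An E-box occurred once in the Id2 window (CAGCTG, 196 bases before the start) and 3 times in that of Bmp4, and 66.2% of all windows had 1 or more. The arrangement of GGCGCC, any 5 bases and GTCT, which joins a Smad1 and Smad5 site to a Smad4 site, was looked for on both strands and was in none of the 6 windows and in 0.07% of all windows. GTCT alone, on either strand, occurred 0 times in the Id4 window, and 82.9% of all windows had 1 or more. It occurred 1 time each in Id2, Bmp4 and Smad6 and 2 times each in Id3 and Bmp10. The Id4 window had 75.6% G and C, above 96.4% of all windows, against 62.8% in both Id2 and Id3 and a median of 52.4%. These are descriptions of letters in short windows. No binding was measured in these libraries.

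**Figure D2:**
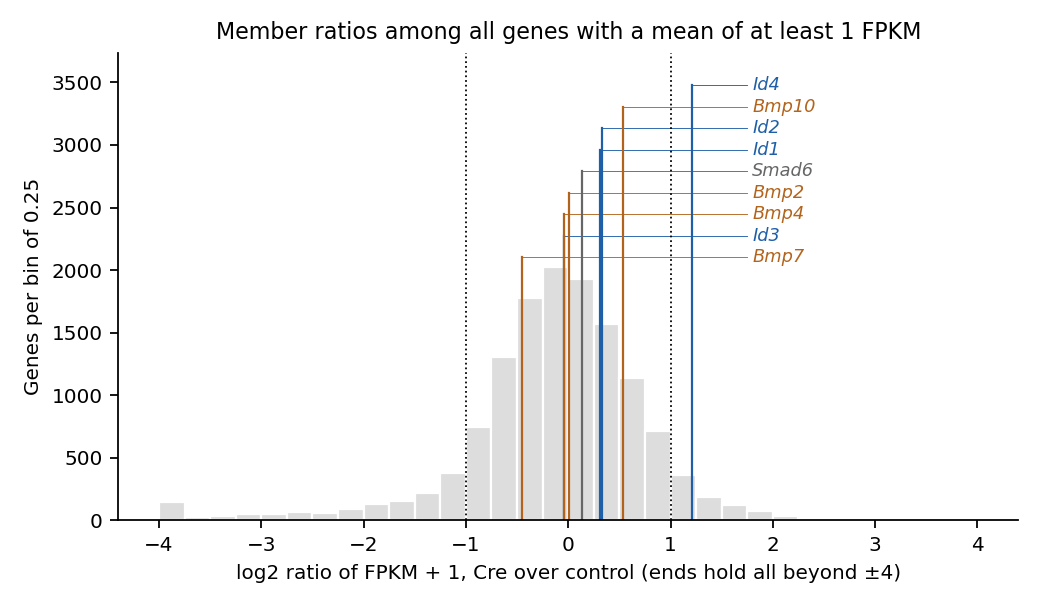
Log2 ratios of FPKM + 1 (Cre over control) of the 9 genes, as coloured lines, on the histogram of 13411 genes whose mean reached 1 FPKM, with dotted lines at 2-fold. Line height only separates the labels. Id4 at 1.21 is beyond the dotted line and the other 8 genes lie between -0.45 and 0.54, with values near 0 whose sign depends on the scaling.

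As groups, the Id genes had a median of 0.32 (log2 ratio) and the ligands one of -0.01, a gap of 0.33. The gap was between 0.32 and 0.39 under the 9 settings. A centring subtracts the same value from every gene, so it cannot change the gap, and the other scalings hardly can. The Id median itself turned to -0.20 with the endothelium and fibroblast centring, and the ligand median was above 0 in 4 settings. With 4 genes in each group, the ranges overlapped: ligands lay between -0.45 and 0.54 and Id genes between -0.05 and 1.21. Summed FPKM gave another order, since the 4 ligands summed to 165 FPKM without Cre and 232 FPKM with Cre, 1.41 times as much against 1.13 times for the Id family. Bmp10 was the only ligand of the 4 whose values lay more than 1 FPKM apart. Smad6, a target as well as an inhibitor, lay between the 2 medians.

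**Figure D3:**
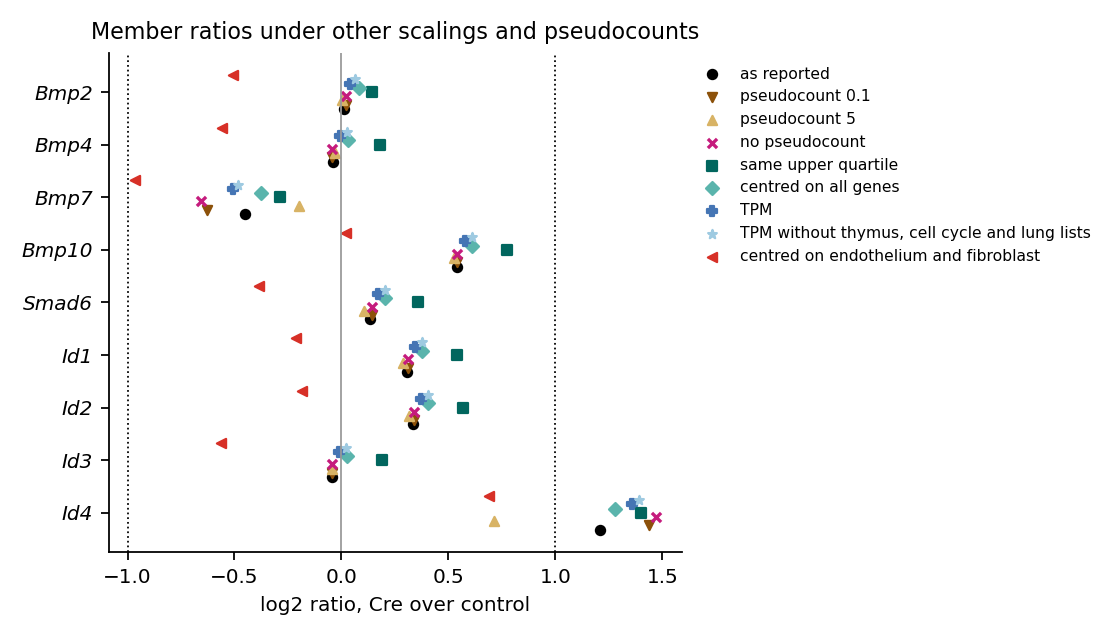
Log2 ratios (Cre over control) of the 9 genes under 9 settings of scale and pseudocount, 1 symbol per setting, with dotted lines at 2-fold. Id4 passes 2-fold in 7 settings, Bmp7 is below 0 in all 9, and the centring on endothelium and fibroblast lists puts every gene but Id4 and Bmp10 below 0.

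The rest of the pathway was read from a list of 74 genes in 8 roles, of which 67 had a value and 61 reached a mean of 1 FPKM. Of these 61, 4 (6.56%) were 2-fold or more higher with Cre and 2 (3.28%) lower, beside 6.08% and 10.4% of all genes. With the deposited scaling and a pseudocount of 1, the share of higher genes was thus near that of all genes. It was the larger share under some other settings, such as 9 of 61 with no pseudocount, beside 1320 of 13411 genes. The median log2 ratio was 0.34, and 49 of 61 ratios (80.3%) were above 0, against 46.0% of all genes. Set against the median of all genes, the pathway median was 0.41 and 55 of 61 ratios were above 0. The endothelium and fibroblast centring subtracts 0.52 from every gene, which put the pathway median at -0.18 and that of all genes at -0.59. It left 22 of 61 pathway ratios above 0. Under that centring the medians of the Smads that carry the signal, secreted antagonists, inhibitors and bHLH partners were below 0 (-0.46, -0.12, -0.39 and -0.27), and those of the other ligands, proteases, receptors and targets were above it (0.22, 0.05, 0.23 and 0.05). The lists of endothelium, fibroblast and smooth muscle markers also had medians above 0, at 0.47, 0.60 and 0.72, and the part of these cells was not tested. None of the 67 was called significant in the authors' deposited table.

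Other ligands were all weaker than Bmp10. Bmp5 had 1.98 FPKM without Cre and 5.37 FPKM with Cre, a log2 ratio of 1.10, and was the one higher gene of 6 above the minimum. Bmp6, an endothelial ligand of iron control, had 10.7 and 13.9 FPKM, and Gdf10 had 7.04 and 14.1 FPKM. The 6 ratios were all above 0, with a median of 0.74. Bmp8b and Gdf6 were below the minimum and Bmp8a, Bmp15 and Gdf2 had no value. Of the proteases that mature ligands, 0 of 6 passed the rule, with a median of 0.57. Bmp1, which cuts chordin and procollagen, had 13.6 and 20.8 FPKM, and Furin and Pcsk6, which cut the ligand precursors, had 11.8 and 8.92 FPKM without Cre and 18.0 and 13.7 FPKM with Cre.

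Among 11 receptors and co-receptors 1 was higher and 0 were lower, with a median of 0.75. The higher one was Rgma, a membrane-anchored co-receptor, at 3.60 FPKM without Cre and 8.28 FPKM with Cre, a log2 ratio of 1.01 just past the rule. Bmpr1a, a type I receptor, had 23.6 and 40.3 FPKM, a log2 ratio of 0.75. Endoglin (Eng), the endothelial co-receptor, had 89.1 and 105 FPKM, and Hfe2 (hemojuvelin, a co-receptor of muscle and liver) had 20.9 and 19.9 FPKM. The Smads that carry the signal differed little, with 0 of 4 past the rule and a median of 0.06. Smad4, the shared partner, had 24.3 and 23.7 FPKM, Smad5 had 22.2 and 18.8 FPKM and Smad1 had 6.74 and 7.57 FPKM.

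**Figure D4:**
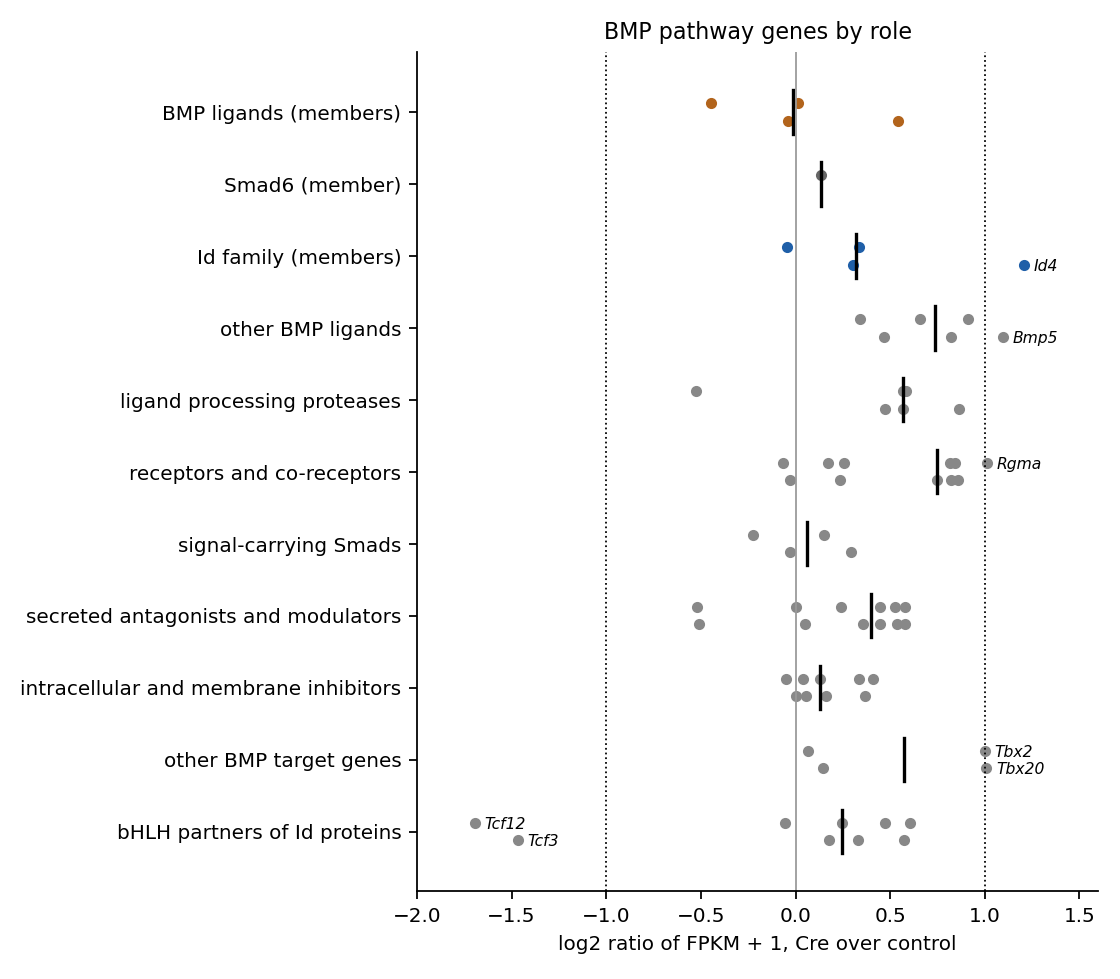
Log2 ratios of FPKM + 1 (Cre over control) of the 9 genes and of other BMP pathway genes whose mean reached 1 FPKM, 1 point per gene, by role. Black bars are medians, dotted lines mark 2-fold, and genes past them are named. All role medians outside the member ligands lie to the right of 0 as deposited, and 6 of them (the Id family, Smad6, the signal-carrying Smads, secreted antagonists, inhibitors and bHLH partners) turn below 0 with the endothelium and fibroblast centring, and the E protein genes Tcf12 and Tcf3 are the 2 points on the far left.

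No secreted antagonist and no intracellular or membrane inhibitor passed the rule (0 of 12 and 0 of 9), with medians of 0.40 and 0.13, the second the same as the ratio of Smad6. Fstl1, a secreted glycoprotein of mesenchyme, had 155 FPKM without Cre and 232 FPKM with Cre. Twsg1 and Nbl1, which bind BMPs outside the cell, had 49.6 and 28.3 FPKM without Cre and 67.9 and 41.5 FPKM with Cre. Noggin (Nog) was near the floor of both libraries, at 0.179 and 0.310 FPKM, and Grem1 and Sostdc1 were below the minimum too. Of the inhibitors, Fkbp1a, which keeps type I receptors inactive, had 126 and 122 FPKM, the phosphatase gene Ppm1a had 36.4 and 39.9 FPKM, and Tob1 had 24.1 and 32.4 FPKM.

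Of 4 other target genes above the minimum, 2 were higher by narrow margins and 0 were lower. Tbx20, a T-box factor of heart muscle and endocardium, had 17.8 FPKM without Cre and 36.8 FPKM with Cre, a log2 ratio of 1.01. Tbx2, a T-box repressor of the atrioventricular canal, had 1.49 and 3.99 FPKM, a log2 ratio of 1.001. The other 2 were nearly level, with Hey1, which Notch signals also drive, at 9.83 and 11.0 FPKM and Atoh8 at 4.23 and 4.48 FPKM.

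The bHLH partners of Id proteins held both genes of the pathway list that were at least 2-fold lower. Tcf12 (HEB), an E protein, had 67.7 FPKM without Cre and 20.2 FPKM with Cre, a log2 ratio of -1.69. Tcf3 (E2A), another E protein, had 30.4 and 10.4 FPKM, or -1.47 on the log2 scale. In the authors' deposited table these had p-values of 0.0295 and 0.0654 and q-values of 0.616 and 0.867. Both are known from developing thymocytes, and the 17 T cell and thymocyte markers were all lower with Cre (median log2 ratio -6.46). The part of those cells in the 2 values was not tested. The other 7 partners above the minimum did not pass the rule, among them Tcf21, a factor of epicardium and fibroblasts, at 29.6 and 28.5 FPKM.

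**Figure D5:**
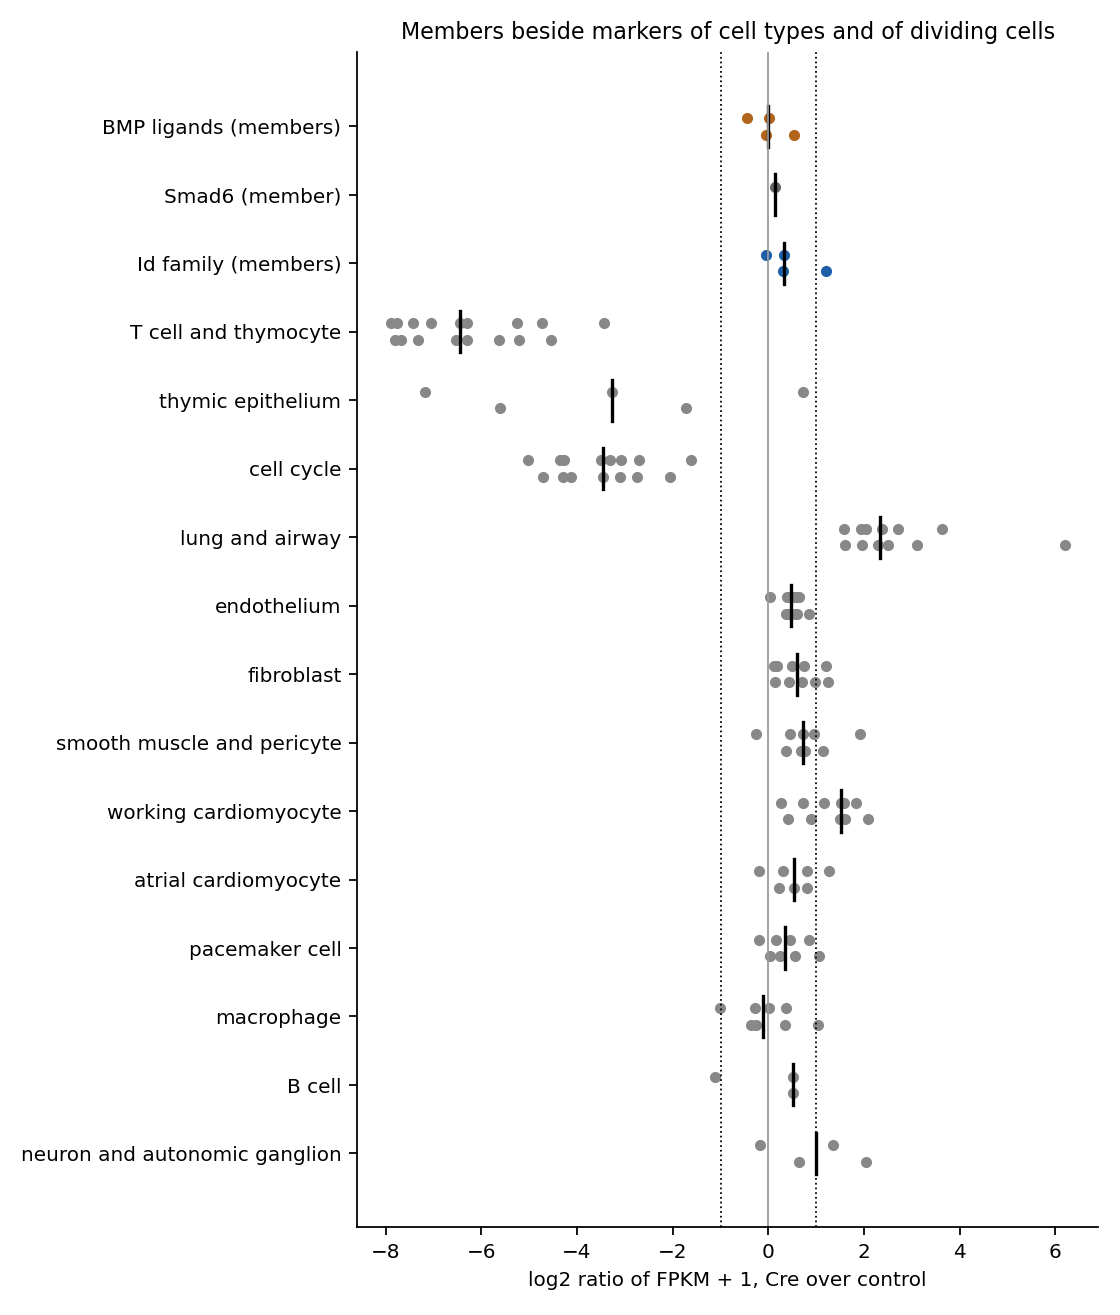
Log2 ratios of FPKM + 1 (Cre over control) of the 9 genes in colour and of markers of cell types and of dividing cells in grey, for genes whose mean reached 1 FPKM. Black bars are medians and dotted lines mark 2-fold. The T cell, thymic epithelium and cell cycle lists are far to the left and the lung list to the right, outside the span of all 9 genes apart from Epcam at 0.73.

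Set against the marker lists, no member differed on the scale of the lists that differed most. The thymus and cell cycle lists had medians of -6.46 (T cells), -3.27 (thymic epithelium) and -3.45 (cell cycle), and the lowest member ratio was that of Bmp7 at -0.45. The thymic epithelium list summed to 380 FPKM without Cre and 16.8 FPKM with Cre, with Foxn1 and Psmb11 at 0.00596 and 0.0316 FPKM with Cre. The lung list had a median of 2.33, and Id4, at 1.21, was below the lowest lung marker (1.59). Id4 lay inside the ranges of the working cardiomyocyte list (0.27 to 2.09), the smooth muscle and pericyte list (-0.25 to 1.92) and the fibroblast list (0.11 to 1.24). It also lay inside the range of the 4 neuron markers that reached the minimum (-0.18 to 2.04). The ends of that range were Dbh, with 3.52 FPKM without Cre and 2.99 FPKM with Cre, and Npy, with 0.963 and 7.06 FPKM. Another 3 measured neuron markers, Th among them, were below the minimum. These shared ranges do not tell which cells the Id4 transcripts came from, and that was not tested. When the thymus, cell cycle and lung genes were left out of the library sums, the Id4 ratio was 1.39. Those of Id1, Id2 and Bmp10 were 0.38, 0.40 and 0.61, and Bmp4 and Id3 turned from just below 0 to 0.02 each. This setting rescales each library as a whole and takes no reads of those tissues out of a gene. It therefore cannot show their part in the ratios.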

How the data were processed

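The deposited table has 1 row per gene and 1 FPKM value per library, made by the authors with TopHat, Bowtie and Cufflinks on mm9, per the submitters' processing notes. For versions, annotation, strand setting and scaling, nothing is given in the sources used here. That the values are FPKM was taken from the column layout, per the file headers. In the same rows stand the authors' deposited log2 fold change (checked to equal that of the 2 values within 1.38e-05), test statistic (a score), p-value and q-value. A test of this kind on 2 libraries has no replicates.

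Rows whose comparison was not completed (2 of 15967) were treated as missing, and small-RNA genes by RefSeq type were left out, as were genes with a mean under 1 FPKM, which leaves 13411. FPKM summed to 497407 in the control and 485189 in the Cre library. Read depth is unknown. The most frequent ratio of the 2 values (0.824, in 32 genes) would be that of 1 read in each library, a tentative relative depth of 1.21, so no counting interval is given. Ratios were computed with Python 3.11.15, pandas 2.3.3 and a pseudocount of 1. The formula was tested on simulated data with set folds and no noise, which checks the arithmetic only. Named genes were all members, Arid1a, each pathway gene past 2-fold, the 3 most expressed of each role, and leading or near-absent markers. Members, lists and centring were chosen with earlier results of these data known. Promoter windows came from RefSeq on GRCm38.p6, and no coordinates were converted. Alternatives were pseudocounts of 0.1, 5 and none, minimums of 5 FPKM and none, the same upper quartile, TPM (with and without thymus, cell cycle and lung genes in the sums), centring on all genes or on the endothelium and fibroblast lists, and keeping the rows not completed.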

Additional observations from a re-analysis of the deposited data

How the results depend on the processing

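No replicate could be left out and no paired analysis was possible because each genotype has 1 library. Values were taken as moved when a median changed sign or differed by 1.5-fold, or a count by 1.5 times. The gap between the Id and ligand medians kept its sign in all 8 alternatives. A centring cannot change this gap and a rescaling of a whole library hardly can, so the kept sign is no test of it. The Id median turned to -0.20 with the endothelium and fibroblast centring. The ligand median, -0.01 as deposited, was 0.16 with the same upper quartile, 0.057 centred on all genes, 0.017 in TPM and 0.044 in TPM without the thymus, cell cycle and lung lists. Other pathway genes at least 2-fold higher were 4 of 61 with the deposited scaling and a pseudocount of 1. They numbered 8 with a pseudocount of 0.1, 0 with a pseudocount of 5 and 9 with none. With the same upper quartile they were 9, in TPM 7, in TPM without those lists 8 and with the endothelium and fibroblast centring 0. A minimum of 5 FPKM gave 2 of 39. The lower ones, 2 with the deposited scaling and a pseudocount of 1, became 5 with the endothelium and fibroblast centring. Of all 13411 genes, 815 were higher and 1397 lower with the deposited scaling and a pseudocount of 1 (36.8% of the calls higher). The higher ones were 1262 with a pseudocount of 0.1, 238 with 5 (lower: 805, so 22.8% higher) and 1320 with none. They were 1345 with the same upper quartile (lower: 1080.0, so 55.5% higher), 1104 in TPM and 1191 in TPM without those lists. The endothelium and fibroblast centring gave 248 (lower: 3581, so 6.48% higher), and a minimum of 5 FPKM gave 449 of 9841. The shares of higher genes in the pathway list and among all genes were near each other with the deposited scaling and a pseudocount of 1. With a pseudocount of 0.1 or none, the same upper quartile or TPM they lay further apart, and the pathway share was the larger. The upper quartile moved the median ratio of all genes from -0.07 to 0.14 and the centring to -0.59. The cause was not tested. Unknown read depth limits what can be said of Bmp2, Bmp7 and Id4.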

Other observations

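The summed levels of Id genes and of E protein genes were set side by side after the values were seen. The 4 Id genes summed to 246 FPKM without Cre and 279 FPKM with Cre, while the E protein genes Tcf3, Tcf4 and Tcf12 summed to 111 and 50.2 FPKM. The ratio of the sums was 2.23 in the control and 5.55 in the Cre library, and a rescaling of a whole library leaves it as it is. The genes within each sum were not alike. Id3, the most abundant Id gene, was nearly level, and its sign depended on the scaling. Tcf4, an E protein also found in endothelium and connective tissue, had 12.6 FPKM without Cre and 19.6 FPKM with Cre, whereas Tcf3 and Tcf12 were lower there, as were all 17 T cell and thymocyte markers. The part of those cells in the ratio was not tested.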
